A study of Mus musculus with 15 samples.

Results

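The genes described here are 6 interferon-induced genes, namely the ADP-ribosyltransferases Parp9, Parp10, Parp11, Parp12 and Parp14 and the ubiquitin ligase Dtx3l that works as a partner of Parp9, together with Parp1 and Parp2, which belong to the same enzyme family and are not tied to interferon. They were taken by symbol through their Ensembl gene identifiers, and all 8 were found among the 17712 genes of the deposited expression table. The RNA came from 15 tumours grown under the skin of C57BL/6 mice from MC38 cells, a mouse colon carcinoma line, and stored 24 h after the tumour itself was injected with 100 µL of fluid. Every group shared the mouse strain, the tumour line and this injection. Vehicle was PBS with DMSO and glucose (n = 3). BO-112, which carries poly I:C, a synthetic double-stranded RNA, was given at 50 µg (n = 4). DMXAA, an agonist of mouse STING, was given at 100 µg (n = 4), and the last group received 50 µg of BO-112 and 100 µg of DMXAA in the same volume (n = 4). The tumours are labelled as biological replicates, 1 tumour per library, and no genotype other than the strain is given. In bulk tumour RNA, a change in the number of cells of a type and a change in RNA per cell cannot be told apart.

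ADP-ribosyltransferases, also called PARPs, move ADP-ribose from NAD onto proteins or nucleic acids. Parp1 and Parp2 sense DNA breaks and build chains of ADP-ribose that recruit repair factors. Parp10, Parp11, Parp12 and Parp14 attach single ADP-ribose units, whereas Parp9 acts together with the ligase Dtx3l. Type I interferon, made when cells sense viral RNA or DNA, acts through a cell surface receptor and raises genes that carry a promoter element called the ISRE. A second element, called GAS, is known from genes that answer to interferon gamma.

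The promoters of the members are shown because both elements can be looked for in them. RefSeq (build GRCm38.p6) gave windows for 5 of the 8 members, Dtx3l, Parp11, Parp12, Parp1 and Parp2, and none was used for Parp9, Parp10 and Parp14. The 250 bases before the annotated start were searched on both strands for the ISRE core (GAAA, any 2 bases, GAAA) and the GAS motif TTCNNNGAA. Matches are in capitals. Parp11 has 2 annotated starts and its first window lies at chr6:127446590-127446839 on the + strand, its second at chr6:127453377-127453626 on the + strand. Dtx3l lies at chr16:35939028-35939277 on the - strand, Parp12 at chr6:39118350-39118599 on the - strand and Parp1 at chr1:180568641-180568890 on the + strand.
Parp11 first start: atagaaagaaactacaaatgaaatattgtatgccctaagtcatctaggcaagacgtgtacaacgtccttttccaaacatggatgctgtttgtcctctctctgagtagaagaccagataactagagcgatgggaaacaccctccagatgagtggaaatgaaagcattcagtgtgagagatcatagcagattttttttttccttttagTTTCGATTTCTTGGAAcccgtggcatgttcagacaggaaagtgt
Parp11 second start: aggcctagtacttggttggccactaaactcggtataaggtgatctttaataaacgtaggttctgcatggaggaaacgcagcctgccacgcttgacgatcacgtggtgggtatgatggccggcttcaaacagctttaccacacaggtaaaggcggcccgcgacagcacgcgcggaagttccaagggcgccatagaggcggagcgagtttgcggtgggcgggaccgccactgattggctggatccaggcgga
Dtx3l: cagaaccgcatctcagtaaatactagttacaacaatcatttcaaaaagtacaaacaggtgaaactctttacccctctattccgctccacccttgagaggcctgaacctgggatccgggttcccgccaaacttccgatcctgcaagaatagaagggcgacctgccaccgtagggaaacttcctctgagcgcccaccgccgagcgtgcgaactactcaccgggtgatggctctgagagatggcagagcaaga
Parp12: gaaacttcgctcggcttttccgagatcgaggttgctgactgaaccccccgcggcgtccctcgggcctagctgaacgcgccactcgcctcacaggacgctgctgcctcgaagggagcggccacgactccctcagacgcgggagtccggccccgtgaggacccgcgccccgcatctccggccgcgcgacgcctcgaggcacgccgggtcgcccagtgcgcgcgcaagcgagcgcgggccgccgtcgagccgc
Parp1: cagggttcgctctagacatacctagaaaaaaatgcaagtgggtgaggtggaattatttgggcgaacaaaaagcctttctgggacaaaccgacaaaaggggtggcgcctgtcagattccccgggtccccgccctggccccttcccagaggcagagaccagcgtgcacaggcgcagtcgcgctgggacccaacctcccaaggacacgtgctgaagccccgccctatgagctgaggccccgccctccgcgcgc
The first Parp11 window held 1 ISRE core, written on the opposite strand and beginning at position -44 from the start, and 1 GAS motif beginning at -37, and these overlap. The other windows, that of Parp2 included, held neither. Among all 32851 windows of the same length, 2.98% held an ISRE core and 7.02% a GAS motif. These matches describe the letters only, and no binding was measured.

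Libraries held 12725316 to 19660511 reads assigned to genes, and the 8 members had between 372 and 13143 reads in each. Counting error weighs most for Parp2, with 372 to 652 reads, and its part in the spread of Parp2 was not tested. Levels are given in CPM, reads scaled to a common library size, on the linear scale. Some libraries stood apart. Skeletal muscle markers, 8 genes summed, reached 151 CPM in a vehicle library, 463 CPM with BO-112 and 791 CPM with DMXAA against lowest sums of 5.48, 2.20 and 7.40 CPM, and lay at 2.21 to 6.96 CPM with both agents. The libraries DMXAA 2 and DMXAA 3 had fewer reads in genes with many exon bases, counted over all exons of a gene, as given below for the members. Macrophage markers summed to 2535 to 3221 CPM with vehicle, 2516 to 3035 CPM with BO-112, 2627 to 5482 CPM with DMXAA and 2521 to 3276 CPM with both agents. Of the 8 macrophage genes, Csf1r, Mrc1 and Cd163 were lower with BO-112 by the test described below, and none passed as higher. Without passing, the mean of Cd68 went from 158 ± 10.6 CPM with vehicle to 245 ± 23.2 CPM with BO-112. That of C1qa went from 702 ± 90.5 to 755 ± 89.7 CPM (SD, n = 3 and 4). Neutrophil markers, 8 genes, summed to 29.7 to 40.8 CPM with vehicle, 82.1 to 155 CPM with BO-112, 45.5 to 184 CPM with DMXAA and 99.9 to 260.2 CPM with both agents. T cell markers, also 8, lay at 41.5 to 96.0, 42.3 to 72.2, 68.5 to 126 and 44.1 to 75.2 CPM in the same order. Of 5 epithelial markers 3 were measured, and they summed to 27.7 to 85.4, 6.67 to 11.7, 14.6 to 40.5 and 9.38 to 27.2 CPM, with Epcam at 0 reads in a both-agent tumour. Epcam and Cdh1 fell with BO-112 by the same test. Krt19 did not pass and its mean went the other way, from 0.116 ± 0.032 CPM with vehicle to 0.703 ± 0.605 CPM with BO-112. Fibroblast markers, 6 genes, summed to 1550 to 2183, 1872 to 3478, 1135 to 3097 and 1892 to 2524 CPM, and the 6 endothelial markers to 179 to 204, 245 to 288, 132 to 298 and 149 to 288 CPM. Adipocyte markers, 5 genes, summed to 10.9 to 12.4 CPM with vehicle and 8.51 to 74.8 CPM with both agents. They reached 272 CPM in BO-112 2 against 8.08 to 16.4 CPM in the other BO-112 tumours, and 318 and 165 CPM in DMXAA 2 and DMXAA 1 against 51.4 and 13.6 CPM in DMXAA 3 and DMXAA 4. The part that these markers have in the results below was not tested, except where a value without the libraries concerned is given.

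BO-112 raised all 6 interferon-induced members. Each differed from vehicle by more than the spread between tumours in a linear model (limma) with Benjamini-Hochberg adjustment over all genes at 0.05. Of all genes, 7.64% rose by the same test. The BO-112 and vehicle ranges did not overlap for these 6, as for 18.1% of all genes higher with BO-112. The order of group means was the same for all 6: vehicle, DMXAA, both agents, BO-112. Differences below are log2 ± SE with the adjusted p of limma's test.

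Parp9 and Dtx3l form an ADP-ribosyltransferase and ubiquitin ligase complex that works on chromatin and in antiviral signalling, and their genes lie side by side on chromosome 16 with Parp14. Parp9 (ENSMUSG00000022906.16) stood at 142, 162 and 101 CPM with vehicle and at 274, 309, 293 and 279 CPM with BO-112. It stood at 157, 168, 145 and 174 CPM with DMXAA and at 241, 258, 212 and 204 CPM with both agents. All 4 BO-112 tumours lay above every tumour of the other groups, and both-agent tumours lay above all vehicle and DMXAA tumours. Against vehicle the log2 difference was 1.12 ± 0.14 (adjusted p = 9.94e-05) with BO-112, 0.78 ± 0.14 (adjusted p = 0.00574) with both agents and 0.28 ± 0.14 (adjusted p = 0.303) with DMXAA.

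Dtx3l (ENSMUSG00000049502.18) had 162, 191 and 94.4 CPM with vehicle and 337, 370, 344 and 347 CPM with BO-112. With DMXAA its values were 187, 100.4, 130.4 and 192 CPM, and with both agents 261, 299.6, 221 and 239 CPM. The BO-112 tumours lay above all others, and DMXAA and vehicle tumours overlapped. Its log2 difference from vehicle was 1.29 ± 0.24 (adjusted p = 0.002) with BO-112 and 0.83 ± 0.24 (adjusted p = 0.0889) with both agents, the latter not past the threshold although the ranges do not overlap. The DMXAA difference was 0.04 ± 0.24, with an interval from -0.46 to 0.54. On the annotation, Parp9 and Dtx3l lie on opposite strands and share 367 exon bases of 3548 and 5725. Whether strand was used when reads were counted is not given in the sources used here, so reads from the shared stretch cannot be told apart.

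Parp14 (ENSMUSG00000034422.15), an enzyme with macrodomains that bind ADP-ribose, was the most abundant member in CPM. Its levels were 267, 331 and 156 CPM with vehicle and 702, 789.9, 701 and 635 CPM with BO-112. Under DMXAA they were 337, 160.1, 193 and 353 CPM, and under both agents 463, 573, 431 and 449.6 CPM. All BO-112 tumours were higher than all others, with the 2 low DMXAA tumours near the lowest vehicle tumour. The log2 difference from vehicle was 1.56 ± 0.27 (adjusted p = 0.00148) with BO-112, 0.99 ± 0.27 (adjusted p = 0.0757) with both agents and 0.04 ± 0.27 (interval -0.55 to 0.62) with DMXAA.

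**Figure D1:**
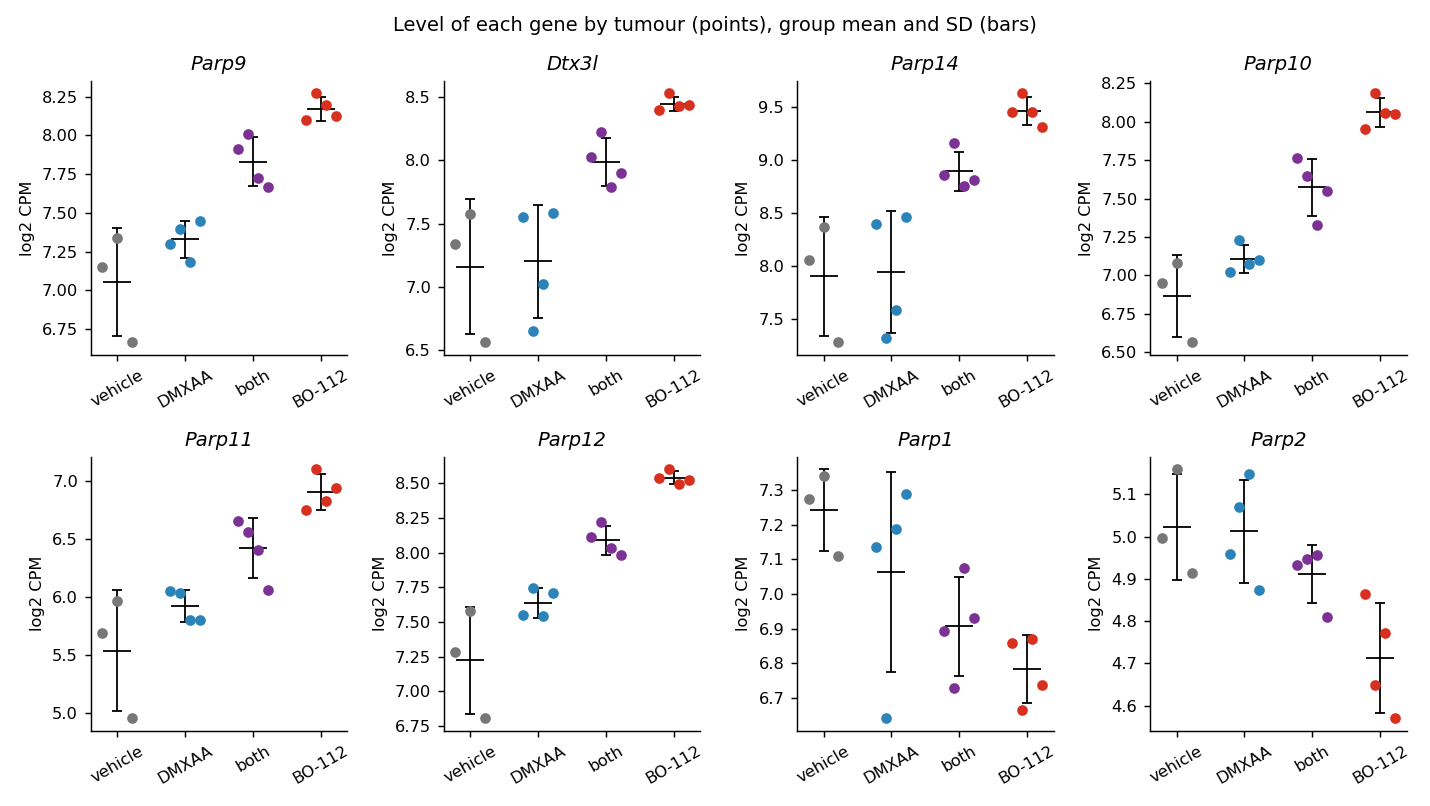
Level of each member (log2 CPM, vertical axis) in all 15 tumours by group, each point 1 tumour, with the group mean and SD as bars. For the 6 interferon-induced genes the BO-112 points lie above all vehicle and DMXAA points. For Parp1 the BO-112 points lie below all vehicle points and for Parp2 also.

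Parp12 (ENSMUSG00000038507.7), a zinc finger member with antiviral activity, stood at 156, 191 and 112 CPM with vehicle and at 372, 388, 360.5 and 368.5 CPM with BO-112. DMXAA gave 187, 215, 186 and 209.5 CPM and both agents 277, 298, 262 and 253 CPM. The 4 groups' ranges for Parp12 were separate except for vehicle and DMXAA. Its log2 difference from vehicle was 1.32 ± 0.14 (adjusted p = 2.37e-05), 0.87 ± 0.14 (adjusted p = 0.00252) and 0.41 ± 0.14 (adjusted p = 0.186) for BO-112, both agents and DMXAA. Parp10 (ENSMUSG00000063268.13), an enzyme that modifies single residues and is linked to DNA replication, averaged 118 ± 20.9 CPM (SD, n = 3) with vehicle, 267 ± 17.7 (SD, n = 4) with BO-112, 138 ± 8.8 (SD, n = 4) with DMXAA and 191 ± 24.1 CPM (SD, n = 4) with both agents. Its difference from vehicle was 1.19 ± 0.13 (adjusted p = 2.61e-05) with BO-112 and 0.71 ± 0.13 (adjusted p = 0.00623) with both agents. Parp11 (ENSMUSG00000037997.13), the least abundant of the 6, averaged 48.3 ± 16 CPM (SD, n = 3) with vehicle and 120.1 ± 12.8 CPM (SD, n = 4) with BO-112. It differed by 1.37 ± 0.20 (adjusted p = 0.000324) with BO-112 and by 0.88 ± 0.20 (adjusted p = 0.0246) with both agents.

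Per kilobase of exon, where genes can be compared, the order with vehicle was Parp12 at 47.3 ± 12.2, then Parp1, Parp9, Parp10, Parp14, Dtx3l, Parp2 and Parp11 at 9.75 ± 3.22 CPM per kb (SD, n = 3). With BO-112 it was Parp12 at 115 ± 3.60, Parp14 at 95.3 ± 8.56, Parp9 at 81.4 ± 4.37 and Parp10 at 78.9 ± 5.23 CPM per kb (SD, n = 4). Parp1 fell from 39.2 ± 3.17 to 28.5 ± 1.93 CPM per kb, from the second place to the sixth. Without the 4 muscle-rich libraries (vehicle 2, BO-112 1, DMXAA 1 and DMXAA 3) the BO-112 differences were 1.29 for Parp9 to 1.79 for Parp14, all 6 past the threshold. Vehicle tumour 3 was the lowest and BO-112 tumour 2, the BO-112 tumour highest in adipocyte markers, the highest of all 15 for all 6 interferon-induced members. Without BO-112 tumour 2 all 6 stayed past the threshold against vehicle. Without vehicle tumour 3 the BO-112 differences were smaller, from 0.93 for Parp9 to 1.25 for Parp14, and all 6 stayed past the threshold.

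**Figure D2:**
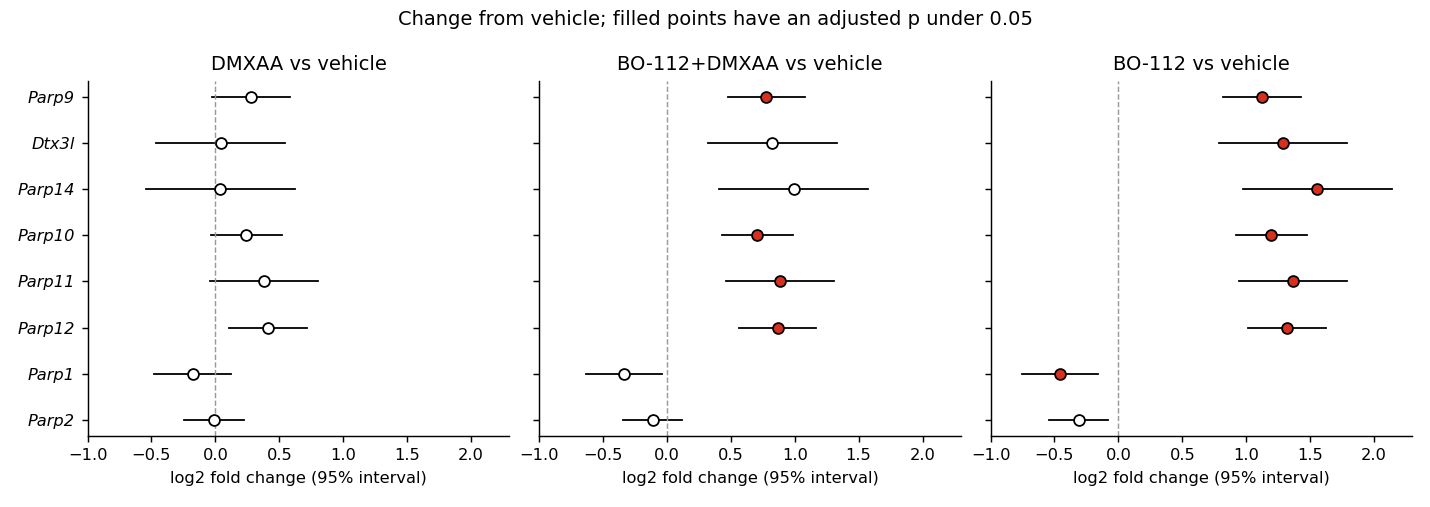
Log2 difference of each member from vehicle for the 3 treated groups (horizontal axis), with limma's 95% interval as lines and filled points for an adjusted p under 0.05. The 6 interferon-induced members lie between 1.12 and 1.56 with BO-112 and between 0.04 and 0.41 with DMXAA.

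No member passed the test for DMXAA against vehicle, where 1.25% of all genes did, and for all 8 the DMXAA and vehicle ranges overlapped. Over all genes, 6.52% lay higher and 5.03% lower with no overlap. The largest member value was that of Parp12, with an interval from 0.11 to 0.72. Parp12 was the only member with an unadjusted p under 0.05, a limit that 18.1% of all genes passed. Without vehicle tumour 2 Parp12 passed the adjusted test (0.59, adjusted p = 0.0478), and calls over all genes went from 221 to 272. DMXAA 2 and DMXAA 3 differed from the other DMXAA tumours by exon length. Relative to the mean of DMXAA 1 and DMXAA 4, Parp14, with 7417 exon bases the longest member, stood at -1.11 in DMXAA 2 and -0.84 in DMXAA 3 on the log2 scale. Dtx3l, with 5725 bases, stood at -0.92 and -0.54, whereas Parp9, with 3548, stood at 0.02 and -0.19. Exon length did not order all members. Parp11, with 4958 bases, stood at 0.11 and -0.12, and Parp1, with 3873, at -0.57 and -0.02. On another reference, the mean of all other libraries, protein-coding genes above a low expression limit were taken. The median deviation of those with more than 5038 exon bases was -0.54 in DMXAA 2 and -0.32 in DMXAA 3. That of those with fewer than 2129 was 0.76 and 0.36. Without DMXAA 2 and DMXAA 3 the DMXAA difference from vehicle was 0.52 (adjusted p = 0.364) for Parp14 and 0.41 (adjusted p = 0.491) for Dtx3l. With both libraries left out, the both-agent difference passed the threshold for Dtx3l (adjusted p = 0.0177) and Parp14 (adjusted p = 0.00917). They also passed without DMXAA 2 alone (adjusted p = 0.0233 for each) and without vehicle tumour 2 (adjusted p = 0.0455 and 0.0432). Both-agent calls over all genes were 1004 without both libraries, 768 without DMXAA 2 and 430 without vehicle tumour 2, against 473 with all tumours.

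**Figure D3:**
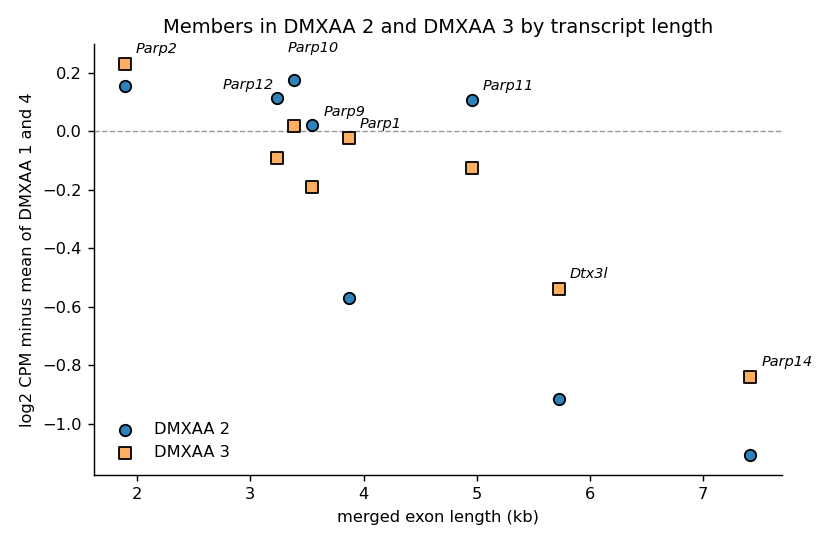
Log2 deviation of DMXAA 2 and DMXAA 3 from the mean of DMXAA 1 and DMXAA 4 for each member, against its merged exon length in kb, 1 point per member and library. The 2 longest members, Parp14 and Dtx3l, are lowest in both libraries, with Parp1 at -0.57 in DMXAA 2.

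Both agents gave a rise over vehicle in 4 of the 8 members, Parp9, Parp10, Parp11 and Parp12, and 2.49% of all genes rose. The Parp11 call was lost without vehicle tumour 1 (adjusted p = 0.0553), vehicle tumour 3 (0.127), both-agent tumour 1 (0.0971) or both-agent tumour 2 (0.0822). All 6 interferon-induced members lay above vehicle in every both-agent tumour, as did 9.92% of all genes, and Parp1 lay below, as did 6.58%. Set against BO-112 alone, 0 of the 8 members and 0% of all genes passed limma's adjusted test, and voom on recovered reads also gave 0. At an unadjusted p under 0.05, 1690 genes passed, or 9.54%, and 5 members did, Parp9, Parp14, Parp10, Parp11 and Parp12. In all 6 interferon-induced members both-agent tumours lay below the BO-112 tumours with no overlap, as did 6.11% of all genes. The differences ran from -0.34 ± 0.13 for Parp9 (adjusted p = 0.415) to -0.57 ± 0.25 for Parp14 (adjusted p = 0.498). A fit to those groups alone passed 4 members, Dtx3l (adjusted p = 0.0265), Parp14 (adjusted p = 0.0176), Parp10 (adjusted p = 0.0251) and Parp12 (adjusted p = 0.0121), and 362 genes.

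Compared with DMXAA alone, both-agent tumours were above in every library for these 6 members, as for 4.54% of all genes. No member passed the adjusted test, against 0.886% of all genes. At an unadjusted p under 0.05, 6 members passed, and so did 23.9% of all genes. Voom passed 0 members and 136 genes. The differences ran from 0.45 ± 0.13 for Parp12 (adjusted p = 0.0977) to 0.95 ± 0.25 for Parp14 (adjusted p = 0.0816). Leaving out DMXAA tumour 4 passed 4 members, leaving out DMXAA tumour 1 passed 3, leaving out vehicle tumour 3 passed 2 and leaving out both-agent tumour 3 passed 1. Over all genes, 1504, 1765, 168 and 234 passed in the same order, against 157 with all tumours. All 6 were higher with BO-112 than with DMXAA, with 11.2% of all genes raised and 12.1% higher with no overlap (the 6 members included), from 0.84 ± 0.13 for Parp9 (adjusted p = 0.00081) to 1.52 ± 0.25 for Parp14 (adjusted p = 0.00124). These comparisons share groups with those above and are not independent of them.

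The interaction asks whether the change with both agents departs from the sum of the 2 single-agent changes on the log2 scale. It was negative for all 6 interferon-induced members and passed the test for 1, Parp12, at -0.86 ± 0.19 (adjusted p = 0.0402), against 1.15% of all genes with a lower value. For Parp12 the single-agent changes summed to 1.73 and both agents gave 0.87. Parp10 stood at -0.73 ± 0.18 (adjusted p = 0.057), with a sum of 1.43 and 0.71 for both. Dtx3l and Parp14 stood at -0.50 ± 0.32 and -0.60 ± 0.37. The Parp12 call held in 7 of 22 alternative analyses. It was kept without vehicle tumour 2 or DMXAA tumour 2 and lost without any other tumour (adjusted p = 0.0504 to 0.0987), and without the 4 muscle-rich libraries no member passed.

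**Figure D4:**
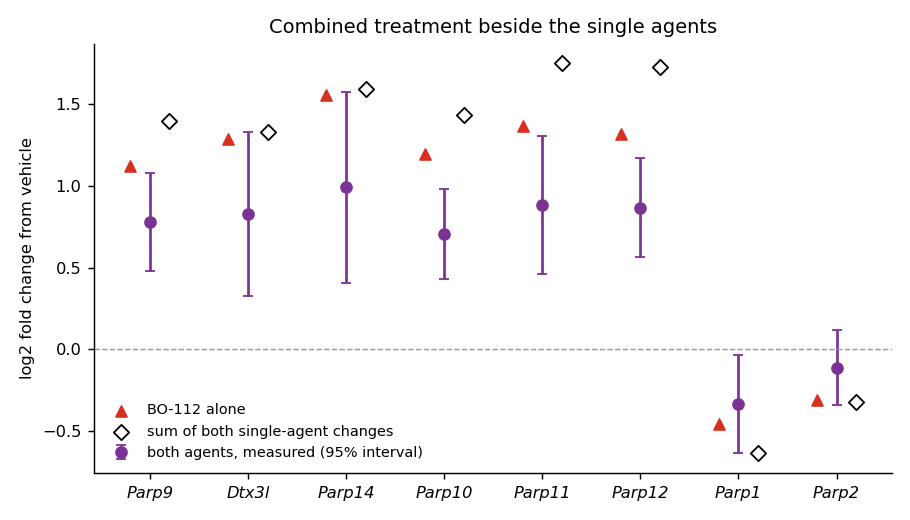
Sum of the log2 differences of the single agents from vehicle (diamonds), BO-112 alone (triangles) and the both-agent log2 difference with its 95% interval (circles), for each member. For the 6 interferon-induced members the sum lies at 1.33 to 1.75 and the both-agent value at 0.71 to 0.99.

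Parp1 and Parp2 went the other way. Parp1 (ENSMUSG00000026496.12), the main sensor of DNA breaks, stood at 155, 162 and 138 CPM with vehicle and at 116, 101, 117 and 107 CPM with BO-112. Under DMXAA it stood at 141, 99.8, 146 and 156 CPM and under both agents at 119, 106, 135 and 122 CPM. BO-112 tumours lay below all vehicle tumours for Parp1 and Parp2, as for 16.8% of all genes, and DMXAA tumour 2 was the lowest of all 15 for Parp1. Parp1 fell with BO-112 by 0.46 on the log2 scale (SE 0.14, adjusted p = 0.0442), as did 4.31% of all genes. This call held in 11 of 23 alternative analyses, with adjusted p from 0.0021 to 0.23. It was lost without any 1 of the vehicle or BO-112 tumours, DMXAA tumour 3, or both-agent tumours 1 or 4 (adjusted p = 0.0516 to 0.147). Parp2 (ENSMUSG00000036023.7), a related sensor, averaged 32.6 ± 2.86 CPM (SD, n = 3) with vehicle and 26.3 ± 2.38 CPM (SD, n = 4) with BO-112, a difference of -0.31 ± 0.11 that did not pass (adjusted p = 0.0781). Parp2 was lower with BO-112 than with DMXAA by -0.30 ± 0.10 (adjusted p = 0.0463), where 10.2% of all genes passed in that direction and 10.5% lay lower with no overlap, as Parp2 did. That call was lost in 18 of 23 alternatives. With DMXAA or both agents against vehicle, no change of Parp1 or Parp2 passed in the main analysis. With both agents, Parp1 passed as lower in 1 of 23 alternatives (adjusted p = 0.0425).

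Other genes of the pathway were taken from lists by known function. Of 9 further ADP-ribosyltransferases, 2 rose with BO-112, where 7.64% of all genes rose and 4.31% fell. Zc3hav1, an antiviral zinc finger protein of the family without enzyme activity, went from 206 ± 16.2 to 353 ± 12.4 CPM (0.78 ± 0.14, adjusted p = 0.00222), and Tiparp, an aryl hydrocarbon receptor target, from 111 ± 11.4 to 174 ± 27.2 CPM (0.64 ± 0.18, adjusted p = 0.0308). Parp8 stood at 0.32 ± 0.12 (adjusted p = 0.0973). The list's median was 0.23, with -0.04 over all genes. DMXAA and both agents moved 0 of these 9 against vehicle, and BO-112 against DMXAA raised 6, and 11.2% of all genes. Of 4 other Deltex genes Dtx2 rose (0.58 ± 0.13, adjusted p = 0.00856). Of 10 erasers and readers of ADP-ribose, such as the glycohydrolase Parg at 0.22 ± 0.09, none passed with BO-112. In the alternative analyses at most 1 did, for example without DMXAA tumour 2. Adprh went from 83.4 ± 5.71 to 109 ± 4.40 CPM and Chd1l from 14.5 ± 1.82 to 11.9 ± 1.35 CPM. Of 12 partners of Parp1 and Parp2 in single-strand break repair, 1 fell, the uracil glycosylase Ung (-0.70 ± 0.19, adjusted p = 0.0285), and the scaffold Xrcc1 stood at -0.34 ± 0.11 (adjusted p = 0.0598).

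Of 12 genes of the interferon signalling chain, 7 rose with BO-112, 5 with both agents and 2 with DMXAA, where Irf7 differed by 1.48 and Usp18 by 1.20. Of all genes, 7.64% rose with BO-112 and 2.49% with both agents, and 1.25% passed in either direction with DMXAA. Usp18, a brake on the receptor, rose by 2.98 ± 0.18 (adjusted p = 1.21e-06) with BO-112, Ifnb1 by 5.70 ± 0.42 (adjusted p = 1.38e-06) and Irf7 by 2.99 ± 0.26 (adjusted p = 3.64e-06). Ifnb1, Irf7 and Usp18 were also the 3 with an interaction below 0 past the threshold. Beside the fall of Parp1, 9 of 16 cell cycle genes fell with BO-112, such as Plk1 (-0.84 ± 0.17, adjusted p = 0.00371), against 4.31% of all genes. The mean level of the 16 lay at 6.53 to 6.78 log2 CPM with BO-112 against 7.04 to 7.26 with vehicle. With DMXAA it lay at 7.02 to 7.33 and with both agents at 6.59 to 7.21, where none of the 16 passed. Whether this has a part in the Parp1 value was not tested. Without the muscle-rich libraries 1 of the 16 fell.

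Ratios between members show how evenly they varied. The log2 difference of Parp14 over Dtx3l, both long, lay at 0.57 to 1.10 in all 15 tumours. Dtx3l over Parp9 lay between 0.23 and 0.31 with BO-112 and between 0.06 and 0.23 with both agents, and was -0.74 in DMXAA tumour 2. Parp12 over Parp9 lay at 0.14 to 0.44 in all tumours. Parp9 over Parp1 was below 0 in all 3 vehicle tumours, down to -0.45, and 1.24 to 1.61 with BO-112. The genes most like the mean profile of the 6 interferon-induced members over the 15 tumours were the ligase Herc6 (Pearson r 0.992), the RNA sensors Tlr3 (0.990) and Ifih1 (0.987), and Trim25, Sp140 and Trim21 (0.986, 0.985 and 0.984). Among deviations from group means, r was 0.964 for Herc6 and 0.875 for Sp140, the lowest. The genes most like Parp1 were Espl1 (0.960), Ppp2r5d, Cdca2, Mybl2, Kif18b and Top2a (0.934). These r compare genes measured in the same libraries, and those over the 15 tumours also hold the differences between treatment groups. The search covered 12281 named protein-coding genes above a low expression limit.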

How the data were processed

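RNA of 15 tumours was sequenced as stranded mRNA libraries. STAR, the mm39 genome, edgeR and limma are named, per the submitters' processing notes. The deposited values are log2 CPM of 17712 genes, and from them the reads were recovered as whole numbers (100% of values, tolerance 1e-06), with 0.5 reads added before the log. The 15 columns of a raw count table without sample names were not used. Libraries held 12725316 to 19660511 reads, and intervals are those of the model at 95%. Symbols (17636 genes) and exon lengths came from GENCODE M21, another build than that of the deposited table. The coordinates printed are those of the RefSeq promoter windows on GRCm38.p6 and do not refer to mm39.

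Group means were estimated from these log2 CPM of all 15 tumours with limma 3.58.1 in R 4.3.3 (trend, robust), for 7 comparisons, with Benjamini-Hochberg adjustment over all genes and a threshold of 0.05. The fit was tested on simulated data. Groups came from the labels. The p-values set group differences against the spread between these tumours. Whether the tumours share a day or cage is not given, so an effect of either could not be told apart from that of treatment. Named genes are the 8 members and 6 genes most like a profile. From each list came some or all of the 3 with the smallest adjusted p for BO-112, and the first in the other direction. Kmo, Csf1r, Mrc1, Cd163, Cd68, C1qa, Epcam, Cdh1 and Krt19 fall outside this rule and were named after their values were seen. The members and lists were chosen with earlier results of these data known.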

Additional observations from a re-analysis of the deposited data

Results flagged for a closer look

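Among the 24 groups of 4 tumours tested for the members, 1 held a tumour far from the rest. For Parp2, tumour 4 of the both-agent group, at 28.1 CPM, lay below the other 3 at 30.5 to 31.0 CPM. The gap was taken on log2 CPM, with 4.81 against 4.93 to 4.96. On that scale it was 0.835 of the group's range, close to the critical value of 0.829. The flag holds for the log2 scale only. Chance flags about 1 in 20 groups.

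For Parp12 the effect of adding DMXAA to BO-112 differed from its effect on vehicle by -0.86 ± 0.19 on the log2 scale (adjusted p = 0.0402, limma). Without DMXAA the group mean was 372 ± 11.6 CPM with BO-112 (SD, n = 4), and with it 273 ± 19.7 CPM (SD, n = 4). Alone it stood at 199 ± 14.8 CPM (SD, n = 4) against 153 ± 39.5 CPM with vehicle (SD, n = 3).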

How the results depend on the processing

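All 6 interferon-induced members rose with BO-112 against vehicle and were higher than with DMXAA in each of 23 alternatives (2 other scalings, a filter of 1 CPM in 4 libraries, limma-voom on recovered reads, replicate block, compared groups alone, libraries left out). Of 1280 alternative values of the members, 1182 kept direction and side of the threshold. The cause of the other changes was not tested. Of the 8 members, both agents against vehicle passed 7 without DMXAA 2 and DMXAA 3, the 6 interferon-induced members as higher and Parp1 as lower. Calls over all genes there went from 473 to 1004. Both against BO-112 passed 4 members and 362 genes with the compared groups alone, and 1 member and 206 genes without DMXAA 2 and DMXAA 3. The interaction passed 0 members with total count scaling or without the muscle-rich libraries (114 and 36 genes). It passed 2 with the filter or without DMXAA 2 and DMXAA 3 (272 and 710 genes). Leaving out each tumour gave 0 to 1 members for DMXAA against vehicle, 0 to 4 for both against DMXAA, and 0 to 2 for the interaction.

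Replicate numbers did not pair the tumours: deviations of same-numbered tumours correlated at a mean of 0.015 (-0.21 to 0.25, 21 pairs), and 2 tumours correlated best with their own number. With the replicate block the interaction passed 2 members and 283 genes against 1 and 239, and BO-112 against vehicle 1762 genes against 2116. Parp2 with DMXAA turned to 0.032 from -0.01.

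For DMXAA against vehicle, values near 0 changed sign. Dtx3l was -0.085 and Parp14 -0.088 with total count scaling, and Parp2 0.017 without the muscle-rich libraries. Leaving out each tumour gave -0.26 to 0.25 for Dtx3l, -0.27 to 0.27 for Parp14 (lowest without vehicle 3, highest without vehicle 2) and -0.066 to 0.057 for Parp2. Dtx1 with BO-112 was 0.0050 without the muscle-rich libraries, from -0.69.

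Counts over all genes ranged from 1090 to 4439 for BO-112 against vehicle (2116 in the main analysis), 4 to 376 for DMXAA (221), 246 to 1004 for both agents (473), 0 to 362 for both against BO-112 (0), 0 to 1765 for both against DMXAA (157), 791 to 5898 for BO-112 against DMXAA (3783) and 36 to 710 for the interaction (239). Total count scaling moved the median of all genes to -0.20 for BO-112 against vehicle and split its calls 932 higher to 1807 lower, against 1353 to 763. Of cell cycle genes 1 to 15 fell with BO-112 (9). Groups of 3 and 4 tumours limit the precision.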

Other observations

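NAD is the substrate of every ADP-ribosyltransferase, and 19 of 20 genes of its supply and use were measured. With BO-112, 3 rose and 2 fell, where 7.64% of all genes rose and 4.31% fell. In the alternative analyses 3 to 6 of the 19 passed, with 3 when the muscle-rich libraries were left out. Cd38, an enzyme that splits NAD, went from 16.9 ± 5.40 to 88.7 ± 16 CPM (2.42 ± 0.23, adjusted p = 7.86e-06). Nampt, the rate-limiting enzyme of NAD salvage, rose by 0.94 ± 0.14 (adjusted p = 0.000382) and Bst1, a relative of Cd38, by 2.14 ± 0.34 (adjusted p = 0.000633). Naprt, which makes NAD from nicotinic acid, fell by 1.13 (SE 0.25, adjusted p = 0.00829), and Kmo, of the kynurenine route, by 1.60 (SE 0.50, adjusted p = 0.0477). With DMXAA, Bst1 rose by 1.54 (adjusted p = 0.0412), and with both agents Cd38 and Bst1 rose by 1.59 each. Bst1 also had an interaction of -2.09 (adjusted p = 0.0378). In the alternative analyses, 0 to 2 of the 19 passed with DMXAA, 1 to 3 with both agents and 0 to 2 for the interaction. With total count scaling, 0 passed with DMXAA and for the interaction, so both Bst1 calls were lost there.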
